A study of Rattus norvegicus with 6 samples.

Results

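The Tribbles genes Trib1, Trib2 and Trib3 are 3 of the 18237 genes counted in cultured rat cells that had received either a control siRNA (siNT) or an siRNA against the metallothionein gene Mt2 (siMt2). They were picked by symbol, and the family was chosen by the measured siMt2-to-siNT difference of Trib2 beside that of its paralogs. The values of the members in this contrast are therefore a description, given with their error and without a test. All 3 members passed the filter on low counts, as did 11726 genes in all.

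Each group held 3 RNA-seq libraries made from total RNA, and no other group was used. The labels call the cells NRVM, usually neonatal rat ventricular myocytes, derived from embryonic myocardium and grown with serum and antibiotics. The protocol text shared by both groups also names dexamethasone, isobutylmethylxanthine and insulin, and does not say whether these cells received them. Nothing in the labels ties a replicate to a culture of its own, so p-values speak only of the spread among these libraries, and that spread may be technical.

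Tribbles proteins are pseudokinases: they keep the fold of a protein kinase but have little or no catalytic activity, and act as scaffolds. A motif in their C-terminal tail binds the ubiquitin ligase COP1, and a motif beside it binds the MAP kinase kinase MEK1. Trib1 and Trib2 are best known for bringing the transcription factor C/EBP-alpha to COP1 for degradation, and Trib2 also for restraining FoxO transcription factors. Trib3 is best known as a target of the transcription factors ATF4 and CHOP in the integrated stress response, and as a protein that binds the kinase AKT. In cardiac myocytes it is known to be inducible by endoplasmic reticulum stress.

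The promoters of Trib2 and Trib3 are shown because their transcripts lay at opposite sides of the siNT level. Both come from RefSeq on build GRCr8, matched by symbol, and each run holds the 250 bases before the start site, written 5′ to 3′ on the minus strand. The capitals mark a match to a searched motif. The Trib2 stretch lies at chr6:44299095-44299344 and the Trib3 stretch at chr3:161275534-161275783. The counts were made on build rn6, so these positions are not those of the count annotation.
Trib2: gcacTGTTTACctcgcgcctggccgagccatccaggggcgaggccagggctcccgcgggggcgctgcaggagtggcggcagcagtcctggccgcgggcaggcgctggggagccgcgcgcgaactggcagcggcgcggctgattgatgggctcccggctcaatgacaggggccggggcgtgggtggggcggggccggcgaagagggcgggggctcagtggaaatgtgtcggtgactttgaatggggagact
Trib3: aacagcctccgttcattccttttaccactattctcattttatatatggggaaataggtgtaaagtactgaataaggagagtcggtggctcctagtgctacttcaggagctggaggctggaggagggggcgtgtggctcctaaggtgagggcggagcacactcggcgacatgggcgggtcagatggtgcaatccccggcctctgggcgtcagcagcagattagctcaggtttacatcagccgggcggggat

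Windows of 300 bases, which add 50 bases after the start site, were searched on both strands for exact matches to 5 motifs. Sites that differ from these strings, even by a single base, were not searched for. The only match was the FoxO motif TGTTTAC in the Trib2 window, on the strand of the gene and starting 246 bases before the start site. This motif occurs in 3.78% of the 33469 windows of the table. The C/EBP-ATF composite core TGATGCAA, found in 0.795% of all windows, had no match in either gene, nor had the cyclic AMP response element TGACGTCA (1.83% of windows) or the E2F motifs TTTGGCGC (0.493%) and TTTCGCGC (0.326%). The searched motifs do not overlap each other at this match. Base composition differed between the genes: G and C made up 73.0% of the Trib2 window and 58.0% of the Trib3 window, with a median of 51.7% over all windows. The Trib2 window held 37 CpG dinucleotides and the Trib3 window 18, against a median of 7.

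The targeted transcript did not separate the groups. Mt2a, the rat Mt2 gene, ranged from 90.7 to 170 CPM in the siNT libraries and from 70.7 to 142 CPM in those labelled siMt2 (edgeR log2 fold change -0.28, SE 0.42, adjusted p = 0.631). The exact two-sided permutation test over 20 assignments gave p = 0.500, and the design of 3 against 3 libraries cannot give less than 0.100. Groups are therefore named by their labels. Library totals lay between 2859759 and 6817777 counts, with siMt2 replicate 3 the lowest, so that the upper limit set by a count of 0 (3 counts) amounts to 0.440 CPM in the deepest and 1.05 CPM in the shallowest library. CPM is a count rescaled to a shared library size, here with TMM factors that correct for library composition. Transcripts of the mitochondrial genome took 4.18% of counts in siMt2 replicate 3 and 3.52% to 3.80% in the other libraries. This library also stood apart in its counts: it differed from its 2 replicates by 2.18 and 2.29 times the counting expectation at the median gene, where the other pairs of replicates differed by 1.58 to 1.67 times.

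The libraries hold little heart muscle RNA. Of 10 cardiomyocyte markers 9 had a row in the counts, and 8 of these had fewer than 100 counts over all 6 libraries together. Their summed level was 29.3 to 32.2 CPM in siNT and 51.3 to 63.7 CPM in siMt2 libraries, most of it from the troponin gene Tnnt2, with means of 27.2 and 54.5 CPM, while the cardiac actin gene Actc1 had 4 counts and the natriuretic peptide gene Nppb 2. Fibroblast markers summed to 7444 to 7619 CPM in siNT and to 9528 to 13519 CPM in siMt2 libraries, with 5 of 7 tested markers higher and 0 lower. Most of this sum came from the collagen gene Col1a1, with means of 4701 and 7795 CPM. Of the 8 fibroblast markers, 3 had fewer than 100 counts over all 6 libraries together, among them Dcn with 50 and Lum with 51. Smooth muscle and pericyte markers summed to 2315 to 2354 and 4084 to 4175 CPM, with 4 of 5 higher and 1 lower. Endothelial markers summed to 69.1 to 79.1 and 24.7 to 36.8 CPM, leukocyte markers to 22.7 to 27.3 and 14.2 to 17.7 CPM, adipocyte markers to 2.53 to 3.59 and 0.438 to 1.89 CPM, and Schwann cell and neuron markers to 5.98 to 7.05 and 14.4 to 18.9 CPM. Nearly all of the endothelial sum came from Eng, with means of 73.0 and 31.6 CPM, and Pecam1, Cdh5 and Kdr had no row. Most of the leukocyte sum came from Cd14, with means of 23.5 and 14.4 CPM. These 2 sums thus rest on 1 gene each and do not establish that such cells were present. Of these other types, 1 endothelial, 1 leukocyte and 1 adipocyte marker could be tested and was lower, and 2 markers of Schwann cells and neurons were higher. The leukocyte marker Ptprc and the fibroblast receptor gene Pdgfra had 2 counts each. The part of these marker shifts in the Tribbles levels was not tested, and in such bulk libraries fewer cells of a type and less RNA per cell cannot be told apart.

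Trib2 was the member whose level differed most between the groups. Its siNT libraries read 41.9, 38.2 and 40.9 CPM, its siMt2 libraries 9.64, 10.9 and 10.9 CPM. Every siMt2 library was far below every siNT library: the lowest siNT value was 3.50 times the highest siMt2 value. The mean went from 40.4 ± 1.90 CPM in siNT to 10.5 ± 0.729 CPM in siMt2 libraries (SD, n = 3 each), 26.0% of the siNT level. The fitted log2 fold change, siMt2 over siNT, was -1.97 (SE 0.14, 95% interval -2.25 to -1.68).

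The raw Trib2 counts behind these levels were 232, 160 and 267 in siNT and 66, 46 and 31 in siMt2 libraries. Replicates varied by 4.70% of their mean in siNT and 6.96% in siMt2, below the counting error of 6.91% and 15.2% that these counts carry. The difference between the groups was thus many times both the replicate spread and the counting error. Of the 11726 genes tested, 35 had a lower log2 fold change than Trib2 and 147 a larger one in size.

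Trib1, the family member with the fewest counts, differed little. Its levels were 19.1, 15.3 and 18.1 CPM in siNT and 16.2, 17.0 and 15.1 CPM in siMt2 libraries. The groups overlapped, since siNT replicate 2 lay below siMt2 replicates 1 and 2. With means of 17.5 ± 1.99 and 16.1 ± 0.944 CPM (SD, n = 3 each), the log2 fold change was -0.12 (SE 0.16), and its 95% interval of -0.45 to 0.20 reaches to both sides of no change. Trib1 counts ranged from 43 to 118 per library, and the replicate variation of 11.4% in siNT and 5.86% in siMt2 compares with a counting error of 10.6% and 12.4%.

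Trib3 was higher in the siMt2 libraries, unevenly so. It stood at 93.4, 89.1 and 88.1 CPM in siNT and at 140, 135 and 96.1 CPM in siMt2 libraries. The groups did not overlap, but siMt2 replicate 3 lay only just above the highest siNT library, at 1.07 times the siNT mean, where siMt2 replicates 1 and 2 stood at 1.55 and 1.50 times. The siNT mean was 90.2 ± 2.79 CPM and the siMt2 mean 124 ± 24.1 CPM (SD, n = 3 each), 137% of the siNT level, and the log2 fold change was 0.48 (SE 0.12, 95% interval 0.22 to 0.75).

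This unevenness of Trib3 exceeds counting error. Its siMt2 counts of 961, 571 and 273 carry a counting error of 4.64%, while the replicates varied by 19.5%. In siNT the variation was 3.09% with a counting error of 4.60%. Without siMt2 replicate 3 the siMt2 mean was 138 CPM, 153% of the siNT level, and the log2 fold change was 0.62. The lower depth and higher mitochondrial share of that library move with this value, and their part in it was not tested. For Trib2 the same omission left 25.4% of the siNT level and a log2 fold change of -1.99.

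**Figure D1:**
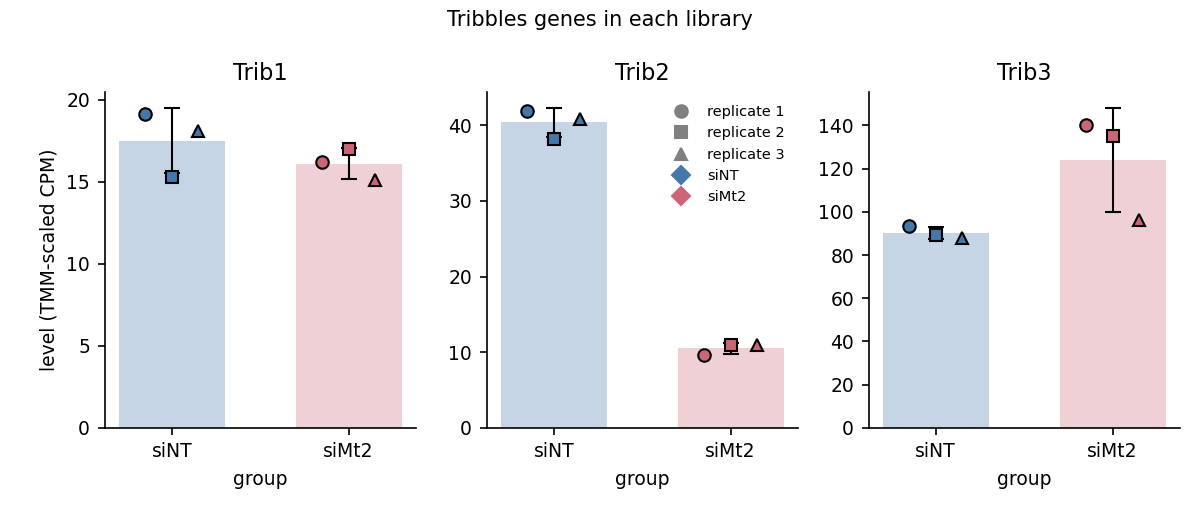
Levels of Trib1, Trib2 and Trib3 (TMM-scaled CPM, 1 panel per gene, each with its own axis from 0) in the 3 siNT and 3 siMt2 libraries, with points for libraries, bars for means and error bars for 1 SD. Trib2 stood between 38.2 and 41.9 CPM in siNT and between 9.64 and 10.9 CPM in siMt2 libraries, Trib1 overlapped, and siMt2 replicate 3 lay apart for Trib3 at 96.1 CPM.

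In this contrast 57.6% of all genes tested had groups that did not overlap, so the separation of Trib2 and Trib3, 2 of 3 members, is common in these libraries. The paralogs can be set against each other within each library, where scaling cancels out. The log2 ratio of Trib2 to Trib1 counts, taken relative to its siNT mean, was -0.08, 0.11 and -0.03 in siNT and -1.96, -1.86 and -1.68 in siMt2 libraries. Its mean difference was -1.83 (SD 0.10 in siNT and 0.14 in siMt2, n = 3 each), a ratio 3.56 times lower. Every siMt2 library lay below every siNT library in this ratio.

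For Trib2 over Trib3 the same ratio was 0.01, -0.06 and 0.05 in siNT and -2.70, -2.47 and -1.98 in siMt2 libraries. The mean difference of -2.38 (SD 0.06 and 0.37, n = 3 each) corresponds to a ratio 5.22 times lower, and the wider siMt2 spread follows the Trib3 value of replicate 3. Trib3 over Trib1 was -0.09, 0.17 and -0.09 in siNT and 0.74, 0.62 and 0.30 in siMt2 libraries, a mean difference of 0.55 (SD 0.15 and 0.23, n = 3 each). The order of the changes was thus Trib2 lowest, Trib1 between and Trib3 highest in each siMt2 library. Levels are not compared between the genes, because transcript lengths of the count annotation were not used here.

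**Figure D2:**
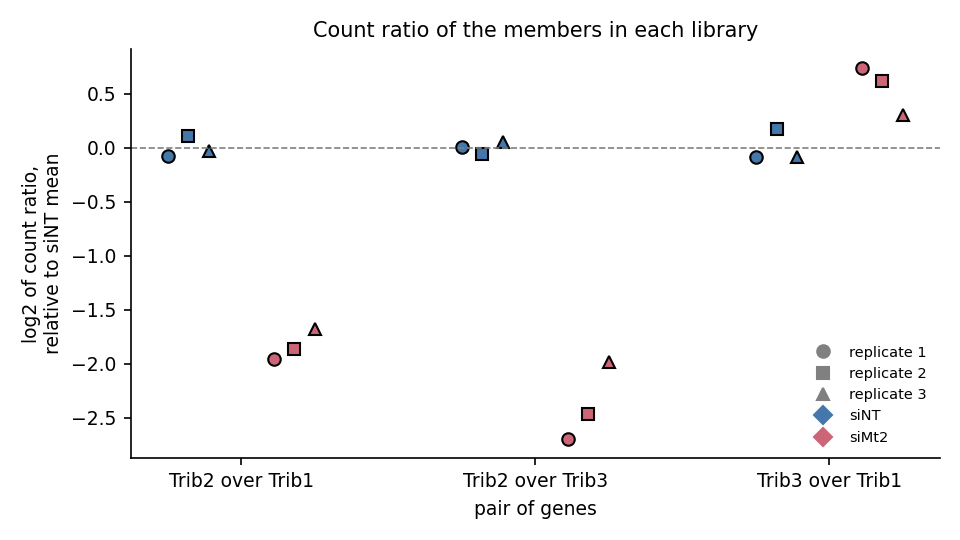
Log2 ratio of the counts of each pair of Tribbles genes in each library, relative to the mean of the siNT libraries (dashed line at 0), with marker shape for the replicate number. In the siMt2 libraries Trib2 lies between -1.96 and -1.68 against Trib1 and between -2.70 and -1.98 against Trib3.

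The genes of the COP1 ligase, through which Tribbles proteins degrade their substrates, changed in both directions. In edgeR's quasi-likelihood test 50.9% of all genes passed an adjusted p of 0.05, 25.8% higher and 25.1% lower in siMt2 libraries, and every list count below has to be read against these shares. Of 7 COP1 ligase genes tested, 2 rose and 3 fell, with a median log2 fold change of -0.08. Cul4a, a cullin scaffold, rose from 85.1 ± 8.04 to 131 ± 0.696 CPM (a log2 fold change of 0.62, SE 0.07, edgeR adjusted p = 4.19e-07), and Rbx1, the RING subunit, rose from 35.3 ± 2.95 to 54.2 ± 4.20 CPM (0.63, SE 0.10). The related cullin gene Cul4b fell from 121 ± 6.38 to 94.8 ± 4.13 CPM (-0.35, SE 0.07) and the adaptor gene Ddb1 from 1061 ± 13.0 to 893 ± 44.0 CPM (-0.25, SE 0.04).

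COP1 itself, listed under its older symbol Rfwd2, stood at 266, 254 and 246 CPM in siNT and at 226, 236 and 224 CPM in siMt2 libraries. The groups did not overlap and the fall was small (log2 fold change -0.16, SE 0.05, edgeR adjusted p = 0.0129). It no longer passed without siNT replicate 1 (adjusted p = 0.0610) or without siMt2 replicate 1 (0.0579).

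Other ubiquitin ligases that have been tied to Tribbles proteins were few, and of 4 tested 1 rose and 3 fell (median log2 fold change -0.41). Smurf1 rose to 131 ± 8.79 CPM from 80.6 ± 8.60 CPM (0.72, SE 0.08, edgeR adjusted p = 2.62e-07). Btrc, which encodes beta-TrCP, fell from 90.3 ± 2.53 to 64.8 ± 2.73 CPM (-0.48, SE 0.08, edgeR adjusted p = 2.51e-05), and Siah1 fell from 40.3 ± 1.74 to 31.7 ± 1.57 CPM (-0.33, SE 0.10, edgeR adjusted p = 0.0119). DESeq2 called 2 of the 4 and gave Siah1 an adjusted p of 0.0522. Trim21 was at 12.8 ± 2.42 and 9.32 ± 0.994 CPM (-0.49, SE 0.20, edgeR adjusted p = 0.0489). The Trim21 call was lost without siNT replicate 1 (0.0792), siNT replicate 3 (0.266), siMt2 replicate 1 (0.202) or siMt2 replicate 2 (0.0685), and with the replicate number as a block (0.0800).

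C/EBP-alpha, the main known substrate of Trib1 and Trib2, was close to absent as a transcript: Cebpa had 4 counts over all 6 libraries. Of 14 genes for C/EBP factors and other COP1 substrates 11 could be tested, of which 1 rose and 3 fell, 36.4% against the 50.9% of all genes, with a median log2 fold change of -0.10. Etv5, an ETS-family transcription factor gene, rose from 38.6 ± 4.14 to 85.4 ± 4.30 CPM (a log2 fold change of 1.16, SE 0.10, edgeR adjusted p = 3.90e-09). The related Etv1 fell from 23.9 ± 4.16 to 14.9 ± 3.39 CPM (-0.70, SE 0.17), and Crtc2, a coactivator of CREB, fell from 55.3 ± 3.78 to 40.1 ± 4.40 CPM (-0.45, SE 0.10).

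Cebpb, the C/EBP-beta gene, stood at 8.13, 9.32 and 9.81 CPM in siNT and at 5.84, 6.62 and 3.87 CPM in siMt2 libraries (log2 fold change -0.70, SE 0.25, edgeR adjusted p = 0.0227). The groups did not overlap, yet the call was lost without siNT replicate 2 (adjusted p = 0.0552), siNT replicate 3 (0.0850), siMt2 replicate 1 (0.0547) or siMt2 replicate 3 (0.0663).

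Kinases that Tribbles proteins bind were mostly higher by small amounts. Of 12 MEK, MAP kinase and AKT genes tested, 7 rose and 3 fell (median log2 fold change 0.28). Map2k1, which encodes MEK1, rose from 158 ± 7.61 to 199 ± 8.28 CPM (0.33, SE 0.06, edgeR adjusted p = 7.81e-05). The JNK genes Mapk8 (0.37, SE 0.09) and Mapk9 (0.35, SE 0.09) rose as well. The kinase gene Akt1 fell from 242 ± 9.76 to 211 ± 9.80 CPM (-0.20, SE 0.05, edgeR adjusted p = 0.00467).

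**Figure D3:**
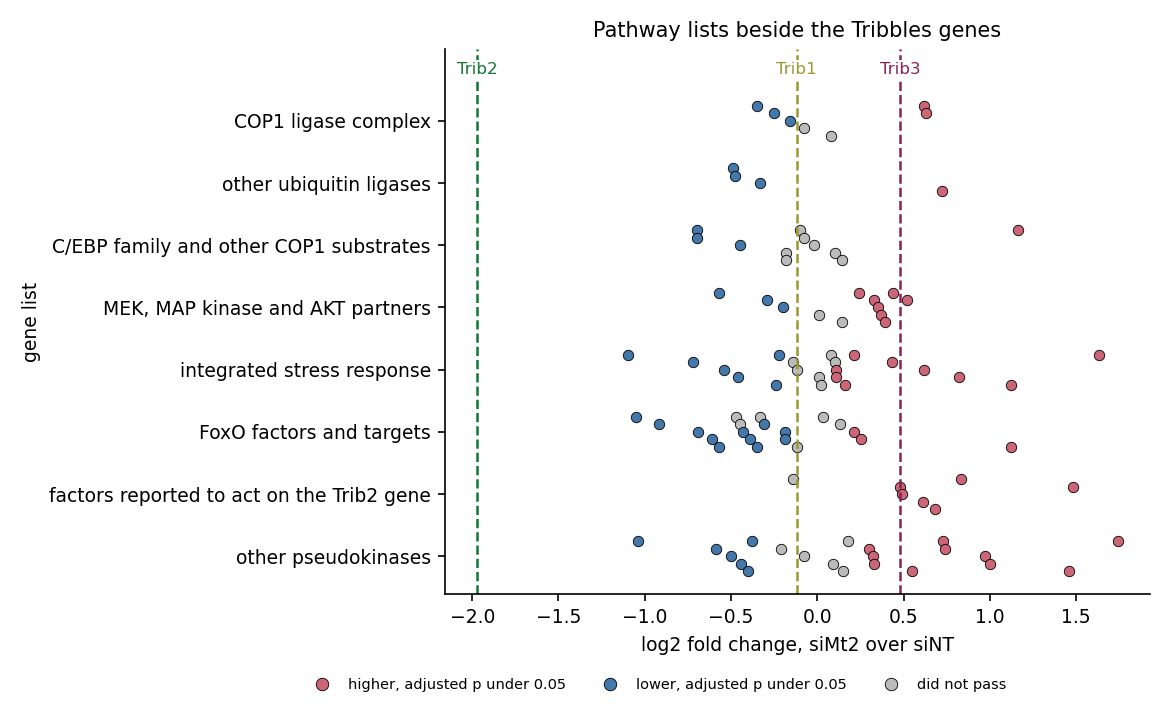
Log2 fold change, siMt2 over siNT, of each tested gene of the 8 pathway lists (1 row per list, vertical offsets only separate points), coloured by whether the gene passed an edgeR adjusted p of 0.05, with dashed lines at Trib1, Trib2 and Trib3. The Trib2 line at -1.97 lies to the left of every plotted gene, the lowest of which is at -1.10.

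The integrated stress response, of which Trib3 is a known target, went both ways. Of 21 genes tested, 9 rose and 6 fell, and the median log2 fold change was 0.08. The balance of calls depended on the setting. With DESeq2, or without siNT replicate 1, siNT replicate 3 or siMt2 replicate 2, 6 rose and 6 fell. Without siMt2 replicate 3, 10 rose and 7 fell. Ddit3, which encodes CHOP, stood at 45.2, 46.6 and 42.0 CPM in siNT and at 131, 137 and 148 CPM in siMt2 libraries (log2 fold change 1.63, SE 0.08, edgeR adjusted p = 9.66e-13). Ppp1r15a, the phosphatase subunit that ends the response, rose from 98.1 ± 3.41 to 214 ± 5.35 CPM (1.12, SE 0.06). The amino acid transporter genes Slc7a11 (0.82, SE 0.05) and Slc7a5 (0.43, SE 0.04) rose too, and Chac1, a glutathione-degrading enzyme and known ATF4 target, fell from 140 ± 4.02 to 64.4 ± 6.77 CPM (-1.10, SE 0.07, edgeR adjusted p = 1.95e-10).

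Atf4 itself was at 442 ± 2.94 and 478 ± 14.4 CPM (log2 fold change 0.11, SE 0.04, edgeR adjusted p = 0.0316). Its call was lost without siNT replicate 1 (0.0765), siNT replicate 2 (0.0745), siNT replicate 3 (0.102) or siMt2 replicate 2 (0.0708). The low Trib3 value of siMt2 replicate 3 was not shared by the CHOP or ATF4 transcripts, both of which had their highest value in that library (148 and 491 CPM). Of the 21 genes of the list, 7 (33.3%) had their lowest siMt2 value in replicate 3 and 9 (42.9%) their highest, beside 36.1% and 41.2% of all genes tested.

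**Figure D4:**
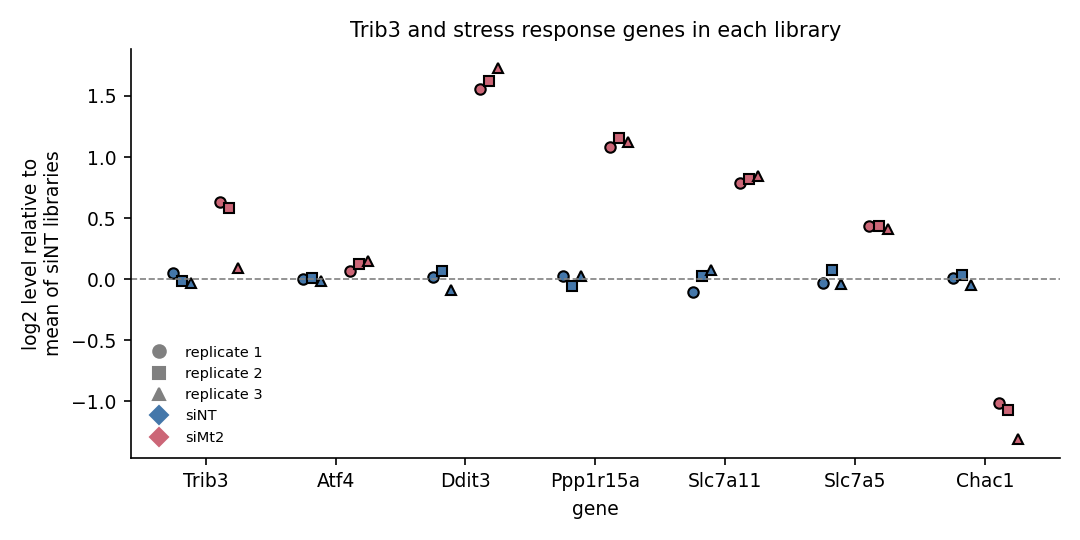
Log2 level of Trib3 and 6 stress response genes in each library relative to the mean of the siNT libraries (dashed line at 0), with marker shape for the replicate number. Replicate 3 of siMt2 lies near the siNT libraries for Trib3 and is the highest siMt2 library for Ddit3, Atf4 and Slc7a11, the lowest for Chac1 and Slc7a5, and in between for Ppp1r15a.

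Genes of the FoxO pathway, which Trib2 is known to restrain, were more often lower than higher. Of 20 tested, 3 rose and 11 fell (median log2 fold change -0.34). Irs2, an adaptor of the insulin receptor, fell from 139 ± 1.21 to 66.6 ± 5.27 CPM (a log2 fold change of -1.05, SE 0.07, edgeR adjusted p = 1.66e-10). The transcriptional coregulator gene Cited2 (-0.57, SE 0.06), the repressor gene Bcl6 (-0.69, SE 0.09) and the pro-apoptotic gene Bcl2l11, which encodes BIM (-0.61, SE 0.10), fell as well. The catalase gene Cat went the other way, from 148 ± 5.62 to 325 ± 16.3 CPM (1.12, SE 0.05, edgeR adjusted p = 1.04e-12).

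Of 9 listed factors that have been reported to act on the Trib2 gene, only 7 had a row in the counts. These mostly rose, 6 of 7 tested and 0 falling (median log2 fold change 0.61), while Trib2 itself was low. With 1 library left out 5 to 6 of them passed, with DESeq2 5, and with libraries thinned to the smallest total 4, with 0 falling in each. Meis1, a homeobox factor, rose from 82.9 ± 2.78 to 117 ± 7.57 CPM (0.49, SE 0.07, edgeR adjusted p = 6.93e-06). Srf, the serum response factor, was at 59.3 ± 5.95 and 89.6 ± 14.6 CPM (0.61, SE 0.11, edgeR adjusted p = 1.30e-04). Of the Wnt-responsive factors Tcf7 rose from 3.44 ± 1.31 to 9.50 ± 1.40 CPM (1.48, SE 0.30) and Tcf7l2 from 33.6 ± 2.89 to 45.9 ± 6.24 CPM (0.48, SE 0.12). The cell cycle factor E2f3 rose from 11.5 ± 1.96 to 19.3 ± 3.86 CPM (0.68, SE 0.19, edgeR adjusted p = 0.00503).

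Among other pseudokinases, which share with Tribbles proteins the loss of kinase motifs, 10 of 21 tested rose and 6 fell (median log2 fold change 0.18). Their log2 fold changes lay between -1.04 and 1.74, and Trib2 at -1.97 was below all of these tested genes. Among pseudokinases with too few counts to test, 2 that were named after their values were seen also had lower siMt2 means. Styk1, with 29 counts in all, stood at 1.68 ± 0.304 CPM in siNT and 0.196 ± 0.179 CPM in siMt2 libraries. Its ratio of means was larger than that of Trib2, but every siMt2 value was under 3 counts. Tex14, with 20 counts, stood at 1.00 ± 0.583 and 0.273 ± 0.294 CPM. Ulk4, likewise untested and named after its values were seen, had more counts (66 in all), and its siMt2 mean was not lower. Stk40, a pseudokinase gene related to the Tribbles family, went up from 31.6, 33.7 and 32.8 CPM in siNT to 63.7, 66.4 and 62.0 CPM in siMt2 libraries (log2 fold change 0.97, SE 0.10, edgeR adjusted p = 5.22e-08). It thus moved to the side opposite to Trib2. Prag1, listed under its older symbol Pragmin, rose from 13.9 ± 1.72 to 38.0 ± 1.73 CPM (1.46, SE 0.13), and the integrin-linked kinase gene Ilk from 283 ± 12.8 to 415 ± 6.04 CPM (0.55, SE 0.05). Trrap, a scaffold of histone acetyltransferase complexes (-0.50, SE 0.06), and Peak1, a relative of Prag1 (-0.40, SE 0.06), fell. Of the 16 genes that passed, the count dropped to 10, 7 higher and 3 lower, both without siNT replicate 1 and with DESeq2.

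The genes next to the members on the chromosome were read from the RefSeq table, in its own order. No other gene of the RefSeq table overlaps any of the 3 members. Of the nearest genes with a row in the counts, Nbas, on one side of Trib2, fell from a mean of 470 to 383 CPM (log2 fold change -0.30, SE 0.04, edgeR adjusted p = 6.76e-06), and the lipid phosphatase gene Lpin1, on the other side, stood at 10.6 ± 3.06 and 7.10 ± 0.562 CPM (-0.53, SE 0.24, edgeR adjusted p = 0.0660). These are not immediate neighbours, with 19 and 6 table genes between them and Trib2. Beside Trib3, Rbck1, a ubiquitin ligase subunit gene, fell from 55.9 ± 4.68 to 36.7 ± 2.40 CPM (-0.60, SE 0.10, edgeR adjusted p = 6.32e-05), and Nrsn2 had 28 counts over all libraries. The rows nearest to Trib1 held 25 and 2 counts.

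Over the 6 libraries Pearson's r of log2 CPM was 0.49 for Trib1 and Trib2, -0.11 for Trib1 and Trib3, and -0.80 for Trib2 and Trib3. The libraries fall into 2 groups, which sets much of these values. With the group means taken out, r was 0.46 for Trib1 and Trib2, 0.46 for Trib1 and Trib3, and -0.44 for Trib2 and Trib3. Both sets of values describe the pattern only.

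Genes most like Trib2 in pattern were Supt6h (r = 0.9998), Vps11 (0.9994), Atp6v0a1 (0.9993), Sidt2 (0.9993) and Ppp2r1a (0.9993), out of 9578 genes with a mean of at least 5 CPM. Such likeness was common for Trib2, with 206 genes above r = 0.99, and over 2 groups of libraries a gene with tight, well separated levels has a high r by construction. Their own log2 fold changes lay between -0.96 (Sidt2) and -0.69 (Supt6h), smaller than that of Trib2. For Trib3 the closest genes were Mk1 (0.9962), Steap3 (0.9937), Flnc (0.9916), Tapbp (0.9916) and Tubb6 (0.9913), and 6 genes were above 0.99. Trib1 had 0 genes above 0.99, and its closest were Snx32 (0.9690), Marveld1 (0.9614), Carm1 (0.9594), Nipsnap3b (0.9478) and Slc25a44 (0.9471).

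With the group means taken out, other genes came first. Trib2 deviations were most like those of Gna13 (0.9946), Ccnt2 (0.9896), Kars (0.9891), Hmces (0.9889) and Slc39a9 (0.9869), and Trib1 deviations like those of Krit1 (0.9969), Pxylp1 (0.9967), Edn1 (0.9888), Elmo2 (0.9878) and Gata3 (0.9877). Trib3 deviations, which rest on the low value of siMt2 replicate 3, were most like those of Prkcdbp (1.0000), Tfap2a (0.9997), Ier2 (0.9996), Fbxo10 (0.9991) and Rere (0.9990), with 52 genes above 0.99. Only 6 libraries stand behind each of these values, so they are a description of rank and carry no p. Trib2 replicates varied by less than their counting error in both groups, so the Trib2 deviations cannot be told apart from counting noise.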

How the data were processed

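Gene counts of 6 RNA-seq libraries were analysed, 3 siNT and 3 siMt2, grouped and numbered by their titles. The authors deposited 1 file of raw counts per library, whole numbers with no normalization. Per the submitters' processing notes, build rn6 and the tools HISAT2 2.2.1, Trimmomatic 0.40, featureCounts, DESeq2 and limma were used, with no role or order given. Strand use and the handling of multi-gene reads are not given in the sources used here.

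All files list the same 18237 rows. In 25 of them, with 0.260% of the counts, a spreadsheet had turned the name into a date. They stayed in the tests but are not named.

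Counts were filtered with filterByExpr (minimum count 10), scaled by TMM and compared with the quasi-likelihood test of edgeR 4.0.16 in R 4.3.3, two-sided, with Benjamini-Hochberg adjustment over 11726 genes and a threshold of 0.05. SE was derived from the fitted fold change and its F statistic. The procedure was also run on simulated counts in which only a small share of genes differed. In these libraries 50.9% of genes passed, so that run does not check the error rate here. Replicate pairs differed by 1.58 to 2.29 times the counting expectation, so none was taken as a repeat. Without molecular identifiers, the counting errors given cover counting alone.

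The members, the 8 lists of 116 genes and the cell type markers were chosen with earlier results of these data known. The text names the members, up to 5 genes per list with the smallest adjusted p past the threshold, 8 defining genes whatever their value (Cop1, Cebpa, Cebpb, Map2k1, Akt1, Atf4, Ddit3 and Stk40), the nearest genes on either side, the 5 genes most alike in pattern, and Mt2a. The results of 2 list genes are not reported here. List genes were matched by symbol or RefSeq synonym, and 110 had a row. Alternatives were DESeq2 size factors, upper quartile scaling or library totals in edgeR, leaving out the filter, demanding 10 counts in all libraries of one group plus a mean CPM of 1, a block for the replicate number, omission of each library in turn, DESeq2 1.42.0, limma-voom (limma 3.58.1) and libraries thinned to the smallest total. Promoters came from RefSeq, where 2 of 3 members were matched. Protein sequences were not used here.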

Additional observations from a re-analysis of the deposited data

How the results depend on the processing

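Over 15 alternatives the log2 fold change lay between -2.01 and -1.89 for Trib2, 0.38 and 0.62 for Trib3, and -0.35 and -0.06 for Trib1, and no sign changed. Of 210 recomputed values, 204 stayed within the replicate spread, or within 1.5 times for counts. With libraries thinned to the smallest total, Trib1 was at -0.35, the Trib2 change minus the Trib1 change was -1.61 in place of -1.83, and 2 of the 4 other ubiquitin ligases passed. DESeq2 called 2 of these 4 ligases and 10 pseudokinases in place of 16, and Siah1, Trim21, Cebpb and Atf4 were among the genes it did not call. With 1 library left out, between 10 and 15 pseudokinases passed, and between 5109 and 6254 genes of all. The cause of these shifts was not tested. The random thinning was not repeated, so in its values lower depth and the randomness of the draw cannot be told apart.

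Same-numbered libraries showed no shared deviation over all genes tested (correlations -0.00182, -0.0600 and 0.0234). These values give no sign that the numbers pair the libraries. They cannot exclude it, because counting error is part of the deviations. With the replicate number as a block 5897 genes passed in place of 5971, and the log2 fold changes were -0.12 (Trib1), -1.96 (Trib2) and 0.45 (Trib3). Among the members, Trib2 had the largest counting error in the siMt2 libraries (31 to 66 counts, 15.2%). In the siNT libraries Trib1 had the largest (64 to 118 counts, 10.6%), and its siMt2 counting error was 12.4%.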
